A study of Homo sapiens with 8 samples.

Results

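The genes of coagulation, fibrinolysis and complement, without the fibrinogen chains, were followed in HepG2, an established human hepatocellular carcinoma line that is used as a model of hepatocytes. A list of 38 gene symbols was matched to the Ensembl gene IDs of the expression files. Of these, 36 had a row among the 20897 genes of the files, and C2 and CFB had none and were skipped. PolyA RNA was sequenced after 18 h of treatment in low serum in 3 groups. Cells received genistein, BMP6 at 50 ng/ml or vehicle (DMSO), with 3, 2 and 3 libraries. Genistein is an isoflavone of soy that inhibits tyrosine kinases and binds oestrogen receptors, and BMP6 is the growth factor of the TGF-beta family through which the liver senses iron. Every well of every group held 1% DMSO. Genistein was used at 10 micromolar by the series design and at 10 millimolar by the treatment protocol, so its dose is uncertain. All groups come from 1 tumour line in culture, which lacks the endothelial cells, platelets and macrophages that a liver supplies. The replicates are called biological in the design text, but nothing says that they came from separate cultures, so p-values measure the spread between these libraries, which may be technical.

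Hepatocytes secrete most of the plasma proteins of both cascades as inactive precursors. In coagulation, tissue factor and factor VII start a chain of serine proteases that ends with thrombin, antithrombin and the protein C system restrain it, and plasmin dissolves the clot. In complement, antibody, sugar patterns on microbes or spontaneous turnover activate serine proteases that cleave C3, and the terminal proteins C5 to C9 then assemble into a membrane pore, with factor I and C4b-binding protein among the brakes.

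Values are the authors' FPKM, a unit of fragments per kilobase of transcript scaled to the size of the library. The scaling used for these files is not given, and sequencing depth is unknown. All 9 hepatocyte markers looked up, among them ALB, APOA1 and HNF4A, had values above 0. The hepatocyte markers summed to 133036 to 213784 FPKM after genistein, 205264 to 225713 FPKM after BMP6 and 177417 to 221394 FPKM in DMSO. These sums hold opposite differences: APOA1 stood at 3983 to 12742 FPKM after genistein, against 50517 to 58896 FPKM in DMSO, and TTR at 822 to 1576 FPKM, against 7162 to 8195 FPKM. ALB stood at 45780 to 61916 FPKM after genistein, against 17949 to 40448 FPKM in DMSO. PTPRC and MARCO of 5 macrophage markers, TEK and KDR of 4 endothelial markers with a row, and COL1A1, COL1A2 and DCN of 5 stromal markers were listed at 0 in every library. The summed macrophage markers, mostly LYZ, stood at 1242 to 1955 FPKM after genistein, 1562 to 2401 FPKM after BMP6 and 3250 to 4859 FPKM in DMSO. The other macrophage markers with values above 0 were higher after genistein, with CD68 at 68.8 to 86.7 FPKM, against 31.4 to 40.6 FPKM in DMSO, and CD14 at 23.9 to 74.4 FPKM, against 0 to 19.3 FPKM. The summed stromal markers, mostly ACTA2, stood at 139 to 179 FPKM after genistein, 149 to 261 FPKM after BMP6 and 253 to 265 FPKM in DMSO, and the endothelial markers at 0 to 1.71 FPKM in all. The 4 bile duct markers summed to 526 to 1118 FPKM after genistein, 314 to 2115 FPKM after BMP6 and 1471 to 2256 FPKM in DMSO. SOX9 stood at 143 to 238 FPKM after genistein, against 751 to 1303 FPKM in DMSO, and EPCAM at 118 to 190.5 FPKM, against 343 to 743 FPKM. KRT19 did not fall, with 265 to 714 FPKM after genistein, against 210 to 327 FPKM in DMSO, and KRT7 stayed under 1 FPKM. The part of these markers in the results below was not tested. Genistein 2 and DMSO 1 had 2167 and 1679 of the 12661 tested genes listed at 0, against 356 to 962 in the other libraries. The BMP6 libraries correlated with each other at 0.847 over tested genes (log2 scale), while BMP6 1 reached 0.889 with genistein 3 and BMP6 2 reached 0.912 with DMSO 3.

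In vehicle-treated cells 13 of the 36 transcripts averaged at least 100 FPKM, and F9, F13B and C9 were listed at 0 in all 8 libraries. F9 encodes factor IX, F13B the carrier subunit of factor XIII, and C9 the terminal pore-forming protein. C3, the central complement component, was the most abundant with 2872, 4217 and 3650 FPKM in DMSO 1, 2 and 3. SERPINF2, the plasma inhibitor of plasmin, followed with 2580, 1654 and 1904 FPKM, and TFPI, the inhibitor of the tissue factor pathway, with 1108, 1638 and 1561 FPKM. C3 did not overlap SERPINF2, and SERPINF2 did not overlap TFPI. PROC, the anticoagulant protease protein C, averaged 1172 ± 220.1 FPKM, VTN, the adhesive plasma protein vitronectin, 984 ± 62.0 FPKM, and F2, prothrombin, 783 ± 120 FPKM (SD, n = 3 each). SERPIND1, the thrombin inhibitor heparin cofactor II, averaged 583 ± 280.3 FPKM and F10, factor X, the protease that activates prothrombin, 470 ± 188 FPKM (SD, n = 3 each). Of the 35 pairs of neighbours in this order, 4 did not overlap between DMSO libraries, so most of the ranking was within the spread of the replicates. The list as a whole made up 0.356%, 0.330% and 0.420% of the FPKM total in genistein 1, 2 and 3, 0.723% and 0.424% in BMP6 1 and 2, and 0.599%, 0.622% and 0.581% in DMSO 1, 2 and 3. The genistein libraries lay below all DMSO libraries in this share, and the BMP6 libraries lay on either side of them. The FPKM totals of BMP6 1 and 2 were 1704599 and 3105197, and the list summed to 12318 and 13155 FPKM in them. These 2 sums lay within the DMSO range of 11093 to 13685 FPKM. The genistein sums of 10126, 7785 and 7809 FPKM lay below it.

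**Figure D1:**
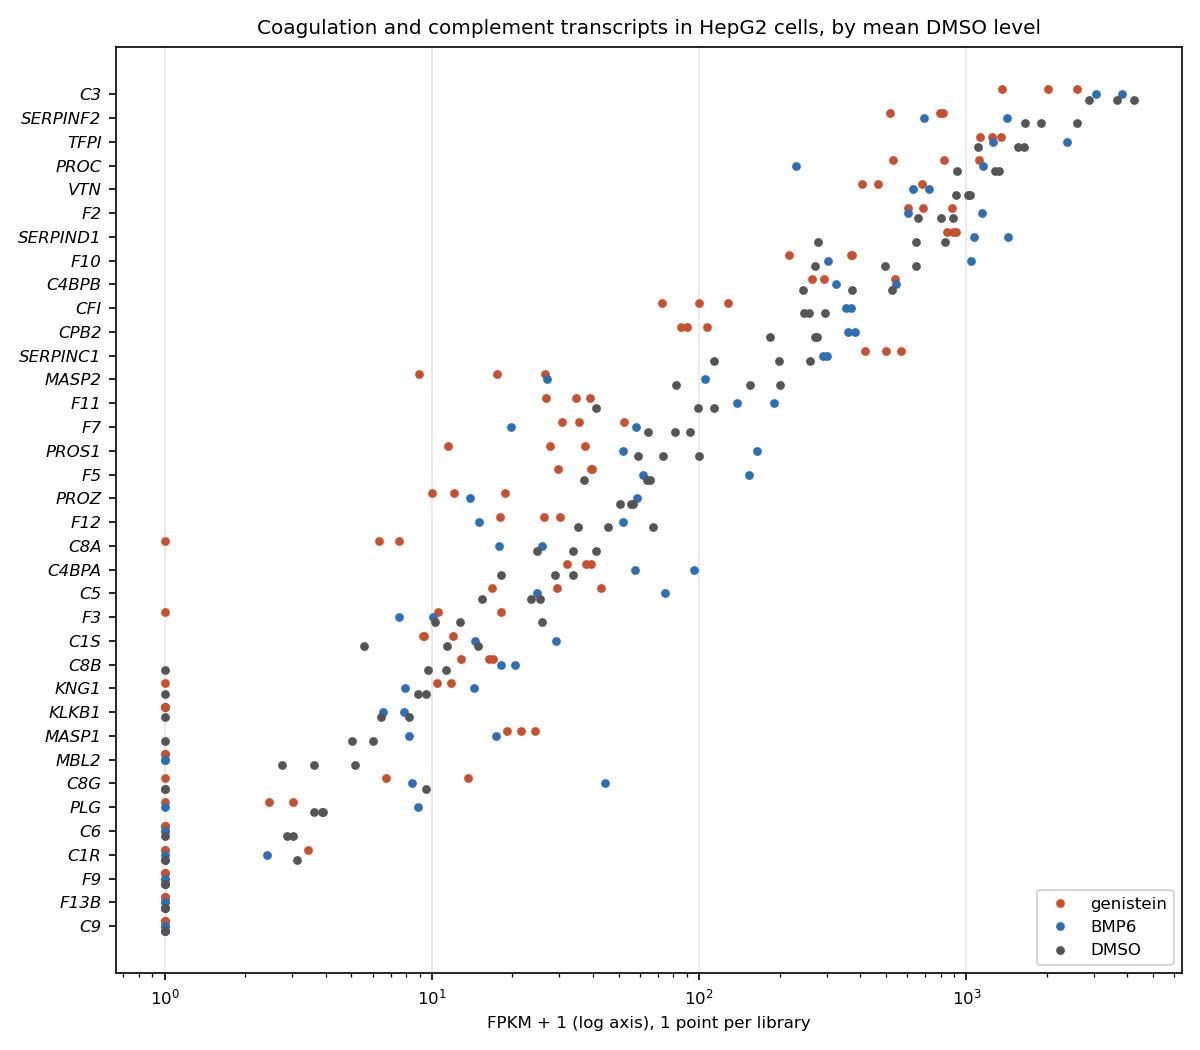
FPKM + 1 (log axis) of the 36 members in each library, ordered by mean DMSO level, with genistein, BMP6 and DMSO as separate colours and 1 point per library. C3 leads with 2872 to 4217 FPKM in DMSO, and F9, F13B and C9 sit at 0 FPKM in all 8 libraries.

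Genistein was set against DMSO to ask what the isoflavone does to these transcripts. In such bulk samples fewer cells of a type and less RNA per cell cannot be told apart. Of 33 members tested, 7 fell and 2 rose, and 24 did not pass (limma on log2(FPKM + 1), adjusted p under 0.05 over 12661 tested genes). Over all tested genes 12.1% were called, 6.11% higher and 5.96% lower. At an unadjusted p under 0.05 there were 13 members, against 30.0% of all tested genes. The members that fell were MASP2, CFI, CPB2, C8A, MBL2, PROZ and SERPINF2, and those that rose were SERPINC1 and MASP1. The median log2 change was -0.88 over the 33 members and 0.05 over all tested genes. The genistein libraries lay wholly below the DMSO libraries for 14 members and wholly above for 4, against 20.6% and 23.3% of all tested genes. No member was called when DMSO 2 or genistein 3 was left out, 1 when genistein 1 was, 2 when DMSO 3 or genistein 2 was, 7 when DMSO 1 was, and 10 when either BMP6 library was. Over all tested genes the share called was 1.83% without DMSO 2, 2.23% without genistein 3, 4.74% without genistein 1, 5.49% without DMSO 3, 4.56% without genistein 2, 8.14% without DMSO 1, and 21.1% and 21.2% without BMP6 1 and BMP6 2. Of the 7 members called without DMSO 1, CFI, CPB2, MASP1 and MBL2 were among the 9, and C6, F11 and KLKB1 were not.

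**Figure D2:**
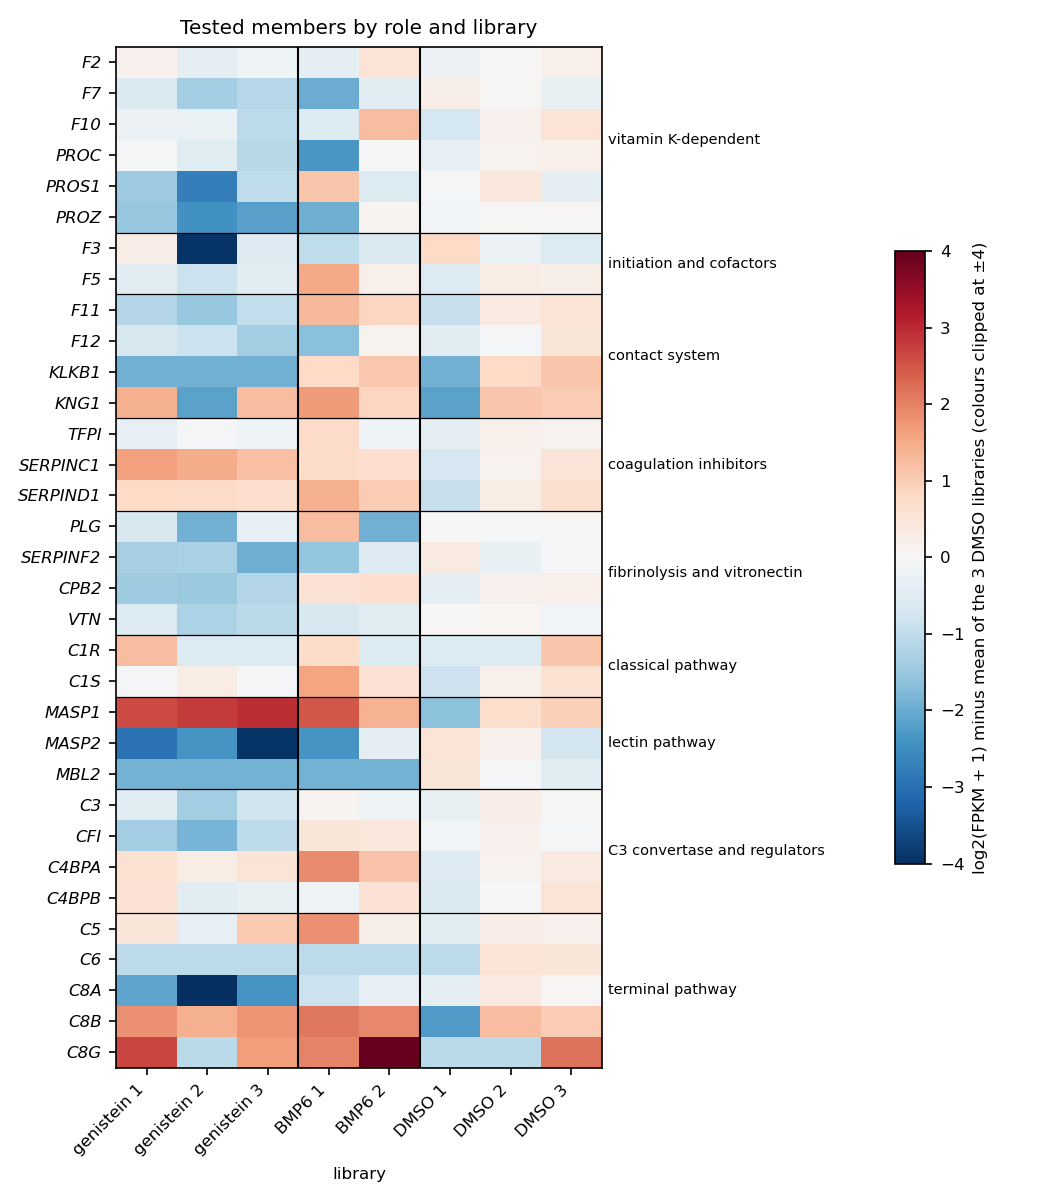
log2(FPKM + 1) of the 33 tested members in each library minus the mean of the 3 DMSO libraries, grouped by role, with genistein, BMP6 and DMSO columns from left to right and colours clipped at 4 on either side. MASP2 and CFI are below the DMSO mean and MASP1 and SERPINC1 above it in all 3 genistein libraries.

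In the lectin pathway, which recognises microbial sugars, MASP2 fell and MASP1 rose. MASP2 (ENSG00000009724; hg18, chromosome 1, 11008649 to 11029883), the protease that cleaves C4 and C2 in this pathway, stood at 16.6, 25.4 and 7.92 FPKM in genistein 1, 2 and 3, against 200, 154 and 80.7 FPKM in DMSO 1, 2 and 3. All genistein libraries lay below all DMSO libraries (log2 change -3.09 ± 0.63, SE; limma adjusted p = 0.0211). MASP1 (ENSG00000127241; hg18, chromosome 3, 188418632 to 188492446), the companion protease that activates MASP2, stood at 18.1, 20.4 and 23.4 FPKM in genistein 1, 2 and 3, against 0, 4.04 and 5.00 FPKM in DMSO 1, 2 and 3. The groups did not overlap (log2 change 2.79 ± 0.71, SE; limma adjusted p = 0.0402), and the change was 1.74 with a pseudocount of 5 FPKM (adjusted p = 0.0151), 4.01 with one of 0.1 FPKM, where the call was lost (adjusted p = 0.122), and 1.97 without DMSO 1, in which MASP1 was listed at 0. MBL2 (ENSG00000165471; hg18, chromosome 10, 54195149 to 54201466), the mannose-binding lectin, was listed at 0 in all genistein libraries, against 4.14, 2.62 and 1.75 FPKM in DMSO 1, 2 and 3 (limma adjusted p = 0.0353), and no fold is given for it. Its call was lost with quantile normalization (limma adjusted p = 0.335) or a pseudocount of 5 FPKM (0.0551) and kept with one of 0.1 FPKM (0.0216). MASP2 lost the threshold without DMSO 1, DMSO 2, genistein 1 or genistein 3 (adjusted p at most 0.0864), and MASP1 and MBL2 lost it without each of these 6 libraries except DMSO 1 (at most 0.133 each).

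Among the C3 convertase and its regulators, CFI fell and the other 3 tested members did not pass. CFI (ENSG00000205403; hg18, chromosome 4, 110881297 to 110942783), factor I, the protease that inactivates C3b and C4b, stood at 99.2, 71.5 and 128 FPKM in genistein 1, 2 and 3, against 245, 295 and 256 FPKM in DMSO 1, 2 and 3. Every genistein library lay below every DMSO library, and the change was -1.44 ± 0.30 (log2, SE; limma adjusted p = 0.0225). C3 had 2583, 1362 and 2016 FPKM in genistein 1, 2 and 3, below all DMSO libraries, and 3830 and 3055 FPKM in BMP6 1 and 2. It did not pass after genistein (log2 change -0.88 ± 0.43, limma adjusted p = 0.206). C4BPB and C4BPA, the beta and alpha chains of C4b-binding protein, had log2 changes of -0.07 ± 0.43 and 0.48 ± 0.37 (SE). CFI lost the threshold without DMSO 2, DMSO 3 or any genistein library (adjusted p at most 0.0939).

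In the terminal pathway C8A fell. C8A (ENSG00000157131; hg18, chromosome 1, 57093065 to 57156482), the alpha chain of C8 that inserts into the membrane, stood at 6.5, 0 and 5.32 FPKM in genistein 1, 2 and 3, against 23.6, 40.3 and 32.6 FPKM in DMSO 1, 2 and 3. The groups did not overlap (log2 change -3.16 ± 0.75, SE; limma adjusted p = 0.0325), and the value listed at 0 was in genistein 2, a library with many such values. C8B, the beta chain, had 16.0, 11.9 and 15.4 FPKM after genistein, against 0, 10.3 and 8.66 FPKM in DMSO, and did not pass (limma adjusted p = 0.227). C5, the source of the C5a peptide, C6, a pore component, and C8G, the lipocalin-like gamma chain, did not pass either. The log2 change of C5 was 0.40 ± 0.53 (SE). C8G had 12.6, 0 and 5.74 FPKM in genistein 1, 2 and 3, against 0, 0 and 8.48 FPKM in DMSO 1, 2 and 3, which overlap. C6 was listed at 0 in all genistein and BMP6 libraries and in DMSO 1, and stood at 2.01 and 1.88 FPKM in DMSO 2 and 3. C1R and C1S, the proteases of the C1 complex, had log2 changes of 0.04 ± 0.75 and 0.04 ± 0.49 (SE). C8A lost the threshold when genistein 3 or any 1 DMSO library was left out (adjusted p at most 0.116).

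In fibrinolysis 2 of 4 tested members fell. CPB2 (ENSG00000080618; hg18, chromosome 13, 45525323 to 45577212), the carboxypeptidase that protects fibrin from plasmin, stood at 89.3, 84.6 and 106 FPKM in genistein 1, 2 and 3, against 183, 270 and 275 FPKM in DMSO 1, 2 and 3. All genistein values were lower than all DMSO values (log2 change -1.35 ± 0.29, SE; limma adjusted p = 0.0238). SERPINF2 (ENSG00000167711; hg18, chromosome 17, 1592880 to 1605309) stood at 796, 819 and 517 FPKM in genistein 1, 2 and 3, against 2580, 1654 and 1904 FPKM in DMSO 1, 2 and 3. Its groups did not overlap, and it passed narrowly (log2 change -1.53 ± 0.41, SE; limma adjusted p = 0.0494). VTN had 679, 406 and 466 FPKM after genistein, against 1010, 1027 and 913 FPKM in DMSO, and did not pass (limma adjusted p = 0.0884). PLG, plasminogen itself, stayed at or under 2.93 FPKM in all genistein and DMSO libraries. CPB2 lost the threshold without DMSO 2, DMSO 3 or any genistein library (adjusted p at most 0.0983), and SERPINF2 lost it when any 1 of the 6 libraries was left out (at most 0.184).

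The regions upstream of the 4 falling members with the smallest p are shown to let the letters be read beside the values. Each is the 250 bases before the annotated start in RefSeq on GRCh38.p14, 5′ to 3′ on the gene's strand, with matches to 6 short motifs in capitals. The MASP2 region is chr1:11047240-11047489 (minus strand), the CFI region chr4:109802000-109802249 (minus), the CPB2 region chr13:46105034-46105283 (minus) and the C8A region chr1:56854547-56854796 (plus).
MASP2: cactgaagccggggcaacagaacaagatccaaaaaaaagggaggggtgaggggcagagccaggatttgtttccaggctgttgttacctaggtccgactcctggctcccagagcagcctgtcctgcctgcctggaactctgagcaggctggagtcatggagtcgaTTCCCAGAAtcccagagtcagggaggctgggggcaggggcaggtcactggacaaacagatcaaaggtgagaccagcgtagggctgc
CFI: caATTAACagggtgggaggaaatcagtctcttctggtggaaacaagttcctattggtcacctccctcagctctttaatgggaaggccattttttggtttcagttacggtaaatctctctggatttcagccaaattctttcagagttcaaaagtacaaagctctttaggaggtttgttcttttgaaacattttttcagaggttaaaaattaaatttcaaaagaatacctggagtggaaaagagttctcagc
CPB2: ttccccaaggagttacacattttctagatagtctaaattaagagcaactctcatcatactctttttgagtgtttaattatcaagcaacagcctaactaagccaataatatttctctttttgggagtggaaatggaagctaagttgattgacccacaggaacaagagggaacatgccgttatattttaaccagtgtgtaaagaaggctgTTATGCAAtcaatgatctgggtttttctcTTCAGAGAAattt
C8A: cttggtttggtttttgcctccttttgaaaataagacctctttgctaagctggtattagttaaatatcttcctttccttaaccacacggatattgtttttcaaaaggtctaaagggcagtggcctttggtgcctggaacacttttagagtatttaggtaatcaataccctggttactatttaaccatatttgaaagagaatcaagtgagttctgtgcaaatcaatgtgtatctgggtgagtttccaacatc

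The capitals mark a STAT element (TTCNNNGAA) in MASP2 and CPB2, an HNF1 element (GTTAAT, on the opposite strand) in CFI and a C/EBP-type element (TTGCNNAA, on the opposite strand) in CPB2. The C8A region held none of the 6 motifs, and no marked matches overlapped each other. The 31 members with a promoter entry had 39 entries, and SERPINC1, SERPINF2, C3, C8G and C1S had none. Of the 39 entries, the STAT element was in 25.6%, the HNF1 element in 23.1%, the C/EBP-type element in 25.6% and the HNF4 core (CAAAGT) in 20.5%. Among all 35116 promoter entries of the same length those shares were 6.57%, 6.23%, 9.05% and 10.3%. A GC-rich BMP-responsive element (GGCGCC) was in 2.56% of the member entries, that of F3, and in 16.4% of all, and a TATA box (TATAAA) was in 5.13% and 10.7%. Both strands were searched, and these shares describe letters and not binding.

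Among the coagulation inhibitors SERPINC1 rose, and SERPIND1 and TFPI did not pass. SERPINC1 (ENSG00000117601; hg18, chromosome 1, 172139562 to 172153096), antithrombin, the main plasma inhibitor of thrombin and factor Xa, stood at 567, 499 and 417 FPKM in genistein 1, 2 and 3, against 113, 198 and 259 FPKM in DMSO 1, 2 and 3. Every genistein library lay above every DMSO library (log2 change 1.45 ± 0.36, SE; limma adjusted p = 0.0387). SERPIND1 had 912, 890.2 and 842 FPKM after genistein, against 277, 645 and 827 FPKM in DMSO, also without overlap (log2 change 0.74 ± 0.44, SE; limma adjusted p = 0.299). TFPI had 1118, 1345 and 1248 FPKM in genistein 1, 2 and 3, within the DMSO range, and 2386 and 1258 FPKM in BMP6 1 and 2. SERPINC1 lost the threshold without DMSO 1, DMSO 2 or any genistein library (adjusted p at most 0.123).

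Of 6 tested vitamin K-dependent factors, which need gamma-carboxylation to bind membranes, PROZ fell and 5 did not pass, and all 6 had a negative change. PROZ (ENSG00000126231; hg18, chromosome 13, 112860969 to 112874695), protein Z, the cofactor of an inhibitor of factor Xa, stood at 17.8, 8.98 and 11.1 FPKM in genistein 1, 2 and 3, against 49.6, 55.5 and 54.4 FPKM in DMSO 1, 2 and 3. The groups did not overlap (log2 change -2.04 ± 0.54, SE; limma adjusted p = 0.0459). PROS1, protein S, the cofactor of activated protein C, had 26.7, 10.4 and 36.3 FPKM after genistein, against 72.0, 99.2 and 58.0 FPKM in DMSO, and did not pass (log2 change -1.73 ± 0.58, SE; limma adjusted p = 0.0887). F7, factor VII, had 51.3, 29.7 and 34.4 FPKM in genistein 1, 2 and 3, against 91.5, 80.4 and 63.5 FPKM in DMSO 1, 2 and 3, and also lay below DMSO in every genistein library (log2 change -1.03 ± 0.45, SE; limma adjusted p = 0.169). F2 had 878, 605 and 687 FPKM in genistein 1, 2 and 3, 602 and 1140 FPKM in BMP6 1 and 2, and 655, 803 and 891 FPKM in DMSO 1, 2 and 3. F10 had 373, 370.3 and 215 FPKM in genistein 1, 2 and 3, 303 and 1039 FPKM in BMP6 1 and 2, and 271, 494 and 645 FPKM in DMSO 1, 2 and 3. PROC had 1115, 826 and 532 FPKM in genistein 1, 2 and 3, against 919.7, 1273 and 1324 FPKM in DMSO 1, 2 and 3. F2, F10 and PROC thus overlapped between genistein and DMSO, with log2 changes of -0.12 ± 0.36, -0.51 ± 0.54 and -0.55 ± 0.60 (SE). PROZ lost the threshold when any 1 genistein or DMSO library was left out (adjusted p at most 0.141).

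None of the 4 tested members of the contact system, which starts clotting on negatively charged surfaces, passed after genistein with all libraries, and F11 and KLKB1 passed without DMSO 1 (limma adjusted p = 0.0285 and 0.0117). F11, factor XI, had 33.6, 25.8 and 38.1 FPKM in genistein 1, 2 and 3, against 40.2, 97.8 and 112 FPKM in DMSO 1, 2 and 3 (log2 change -1.22 ± 0.43, SE; limma adjusted p = 0.103). F12, factor XII, had 29.1, 25.3 and 17.0 FPKM after genistein, against 34.1, 44.5 and 66.0 FPKM in DMSO (limma adjusted p = 0.244). Both transcripts were lower in every genistein library than in every DMSO library. KLKB1, plasma prekallikrein, was listed at 0 in all genistein libraries and in DMSO 1, and stood at 5.48 and 7.18 FPKM in DMSO 2 and 3 (limma adjusted p = 0.145). KNG1, kininogen, was listed at 0 in genistein 2 and DMSO 1 and stood at 7.88 to 10.8 FPKM in the other 4 libraries of these groups. F3, tissue factor, and F5, the cofactor factor V, overlapped between the groups, with log2 changes of -1.38 ± 1 and -0.58 ± 0.43 (SE).

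**Figure D3:**
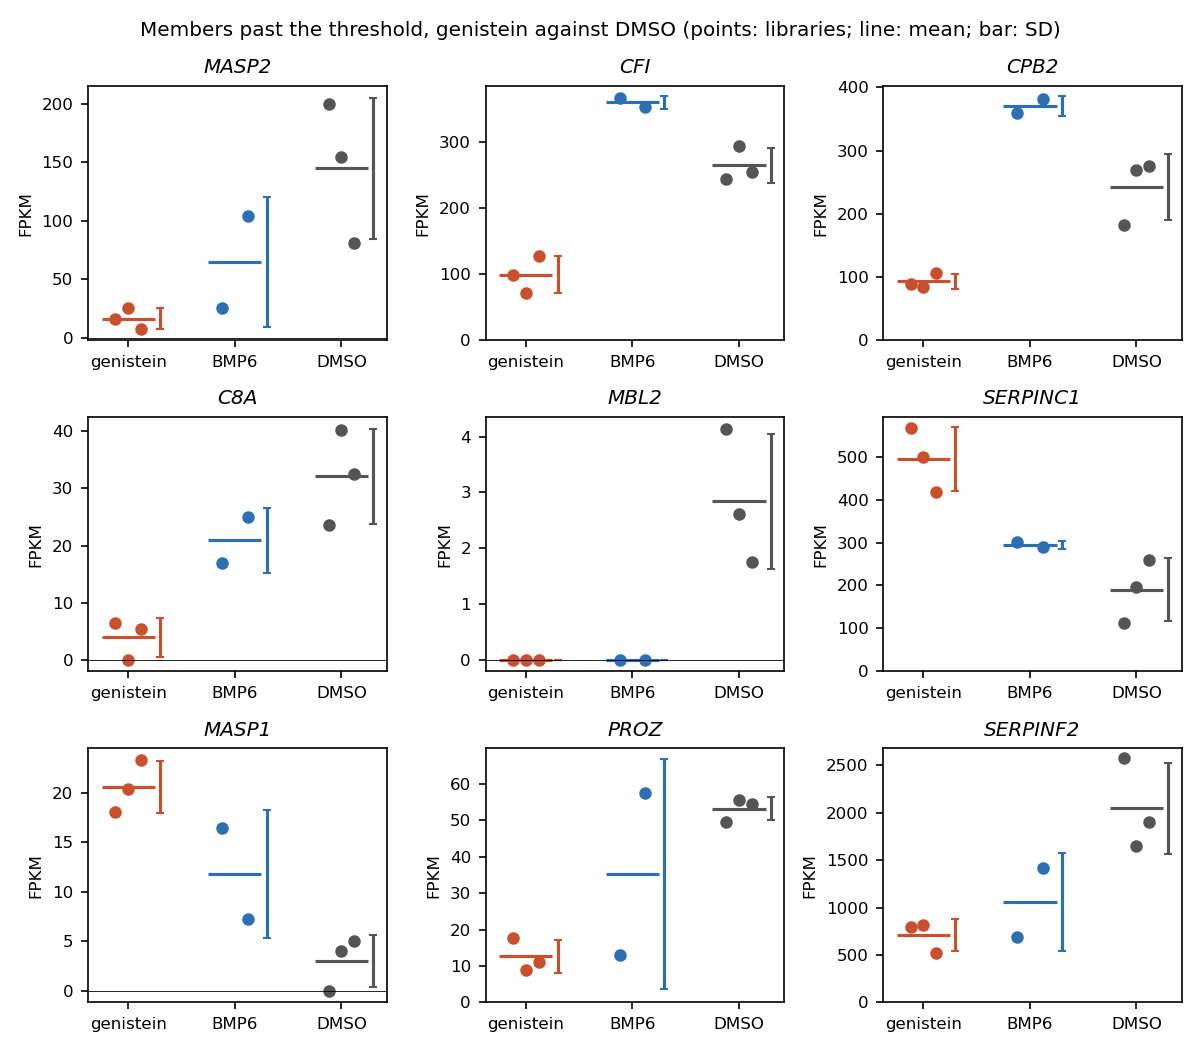
FPKM in each library for the 9 members past the threshold in genistein against DMSO, with genistein, BMP6 and DMSO from left to right (points, libraries; line, mean; bar, SD). In each panel the genistein points do not overlap the DMSO points, and MBL2 is at 0 FPKM in all genistein and BMP6 libraries.

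BMP6 was set against the same DMSO libraries. None of the 33 members passed (limma adjusted p), and 0.837% of all tested genes were called. At an unadjusted p under 0.05 there were 5 members, against 18.9% of all tested genes. The median log2 change was 0.29 over the members and -0.03 over all tested genes. Both BMP6 libraries lay above all DMSO libraries for 8 members and below for 5, against 16.1% and 17.3% of all tested genes. Without BMP6 2 the count was 4, with F7, PROC and PROZ lower and C4BPA higher, and without each other library it was 0. The share of all tested genes called without BMP6 2 was 15.9%.

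C4BPA had 94.8 and 56.4 FPKM in BMP6 1 and 2, against 17.2, 27.9 and 32.7 FPKM in DMSO 1, 2 and 3, and its groups did not overlap (log2 change 1.51 ± 0.41, SE; limma adjusted p = 0.128). SERPIND1 had 1430 and 1069 FPKM in BMP6 1 and 2, above all DMSO libraries (log2 change 1.22 ± 0.50, SE; limma adjusted p = 0.239). MASP1 had 16.4 and 7.24 FPKM in BMP6 1 and 2, also above DMSO (log2 change 1.94 ± 0.79, SE; limma adjusted p = 0.239). SERPINC1 had 301 and 288 FPKM in BMP6 1 and 2, above the DMSO values given above (log2 change 0.71 ± 0.40, SE; limma adjusted p = 0.364). These 4 transcripts were thus higher in both BMP6 libraries than in any DMSO library, and none passed the test. MBL2 was listed at 0 in both BMP6 libraries (limma adjusted p = 0.126). SERPINF2 had 691 and 1421 FPKM in BMP6 1 and 2, below all DMSO libraries (log2 change -1.02 ± 0.46, SE; limma adjusted p = 0.278). VTN, with 629 and 725 FPKM in BMP6 1 and 2, also lay below DMSO (limma adjusted p = 0.433). MASP2 had 25.9 and 104 FPKM in BMP6 1 and 2, which overlapped DMSO (log2 change -1.36 ± 0.71, SE; limma adjusted p = 0.326). F7 had 18.8 and 57.1 FPKM in BMP6 1 and 2, against 91.5, 80.4 and 63.5 FPKM in DMSO 1, 2 and 3 (log2 change -1.21 ± 0.51, SE; limma adjusted p = 0.248). C8G, with the largest positive estimate, had 7.44 and 43.6 FPKM in BMP6 1 and 2, against 0, 0 and 8.48 FPKM in DMSO, and overlapped (limma adjusted p = 0.265). C8B had 19.5 and 17.1 FPKM in BMP6 1 and 2, above its DMSO libraries (log2 change 2.01 ± 0.96, SE; limma adjusted p = 0.3). Without DMSO 1, in which C8B and MASP1 were listed at 0, the BMP6 estimates were 0.88 for C8B, 1.12 for MASP1, 0.76 for SERPIND1 and 0.38 for SERPINC1. Estimates of other members turned on the BMP6 library left out: without BMP6 1 and without BMP6 2 they were -0.43 and -1.99 for F7, -0.50 and -1.54 for SERPINF2, and -0.37 and -2.35 for MASP2. That of C8G was 2.00 without BMP6 2.

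The BMP6 libraries differed from each other for many members, and the difference ran with transcript length. PROC had 229.5 FPKM in BMP6 1 and 1149 FPKM in BMP6 2, and PROZ 12.9 and 57.4 FPKM. PROS1 went the other way with 163 FPKM in BMP6 1 and 51.0 FPKM in BMP6 2, as did F5 with 152 and 60.8 FPKM. Of the 17 tested members whose longest annotated transcript was at least 2382 bases, the median over members, 13 were higher in BMP6 1 than in BMP6 2, 2 were lower and 2 were equal. Of the 16 shorter ones, 3 were higher and 13 lower. Over the 33 members the Spearman correlation of this difference with transcript length was 0.715 and with transcript GC content -0.541, and over 11993 tested genes it was 0.416 and -0.543. These describe a single pair of libraries whose values share their depth and processing, and the part of length or GC content in the BMP6 comparison was not tested. For the mean difference of BMP6 minus DMSO the correlation over the same members was 0.06 with length and -0.225 with GC content, and for genistein minus DMSO it was 0.06 and 0.15.

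**Figure D4:**
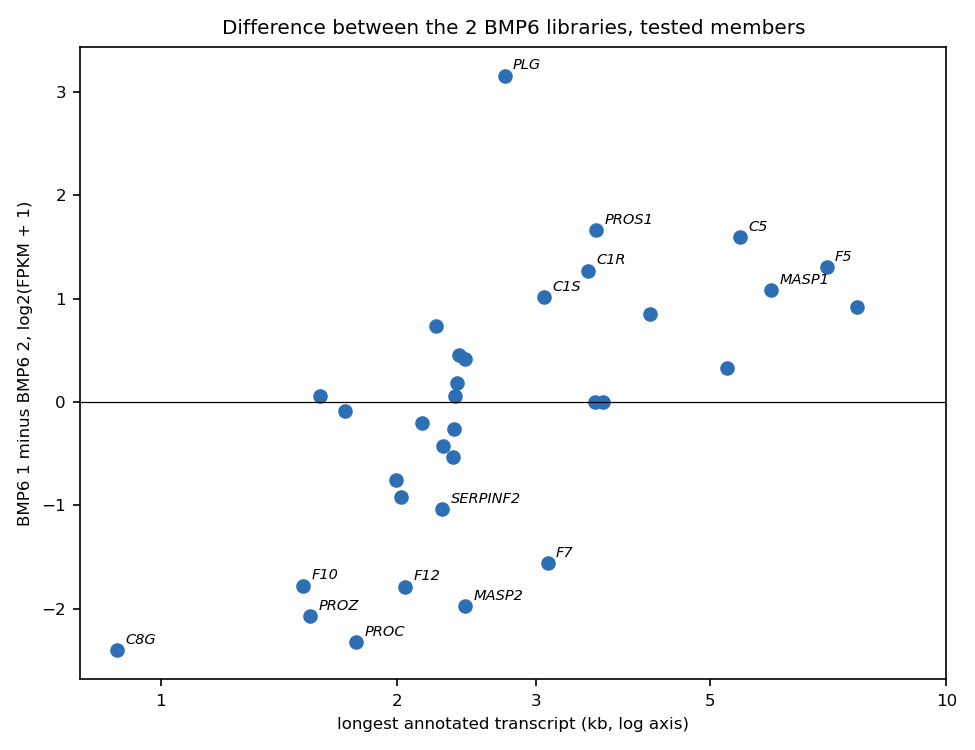
Difference between BMP6 1 and BMP6 2 in log2(FPKM + 1) for the 33 tested members against the length of the longest annotated transcript (kb, log axis), 1 point per member, with names where the difference is over 1. Members with short transcripts such as C8G and PROC are lower in BMP6 1, and members with long ones such as C5 and F5 are higher.

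Genistein was also set against BMP6, the agents being compared at 1 dose each. CPB2 and CFI were lower after genistein than after BMP6, and the other 31 tested members did not pass, against 1.39% of all tested genes called, 0.64% higher and 0.75% lower. At an unadjusted p under 0.05 there were 9 members, against 14.7% of all tested genes. CPB2 had 89.3, 84.6 and 106 FPKM in genistein 1, 2 and 3, against 359 and 382 FPKM in BMP6 1 and 2 (log2 difference -1.98 ± 0.32, SE; limma adjusted p = 0.0265). CFI had 99.2, 71.5 and 128 FPKM in genistein 1, 2 and 3, against 368 and 354 FPKM in BMP6 1 and 2 (log2 difference -1.89 ± 0.34, SE; limma adjusted p = 0.0394). Both transcripts were higher in each BMP6 library than in each DMSO library, without passing in that comparison (log2 changes 0.63 ± 0.32 and 0.44 ± 0.34, SE; limma adjusted p = 0.318 and 0.489). Both comparisons of genistein use the same 3 genistein libraries and are not independent.

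F11 was next in order, with 189.8 and 138 FPKM in BMP6 1 and 2 and a log2 difference of -2.30 ± 0.48 (SE, genistein minus BMP6) that did not pass (limma adjusted p = 0.0666). KLKB1, listed at 0 after genistein, had 5.55 and 6.87 FPKM in BMP6 1 and 2 (limma adjusted p = 0.177). C8A had 16.9 and 24.9 FPKM in BMP6 1 and 2 (log2 difference -2.57 ± 0.84, SE; limma adjusted p = 0.203), and the difference was -1.65 without genistein 2, where it was listed at 0. SERPINC1, MASP1 and PROC had the largest positive differences (0.73 ± 0.40, 0.85 ± 0.79 and 0.62 ± 0.67, log2, SE), and none passed. Without BMP6 1 and without BMP6 2, MASP1 differed by 1.39 and 0.31 and PROC by -0.54 and 1.78. The genistein libraries lay wholly below the BMP6 libraries for 13 members and wholly above for 2, against 12.6% and 16.3% of all tested genes. The count of 2 members became 4 when DMSO 1 was dropped, where 1.68% of all tested genes were called. It became 0 on dropping DMSO 2 (0.447% of all tested genes), DMSO 3 (0.666%), genistein 1 (0.335%), genistein 2 (0.759%) or genistein 3 (0.381%).

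**Figure D5:**
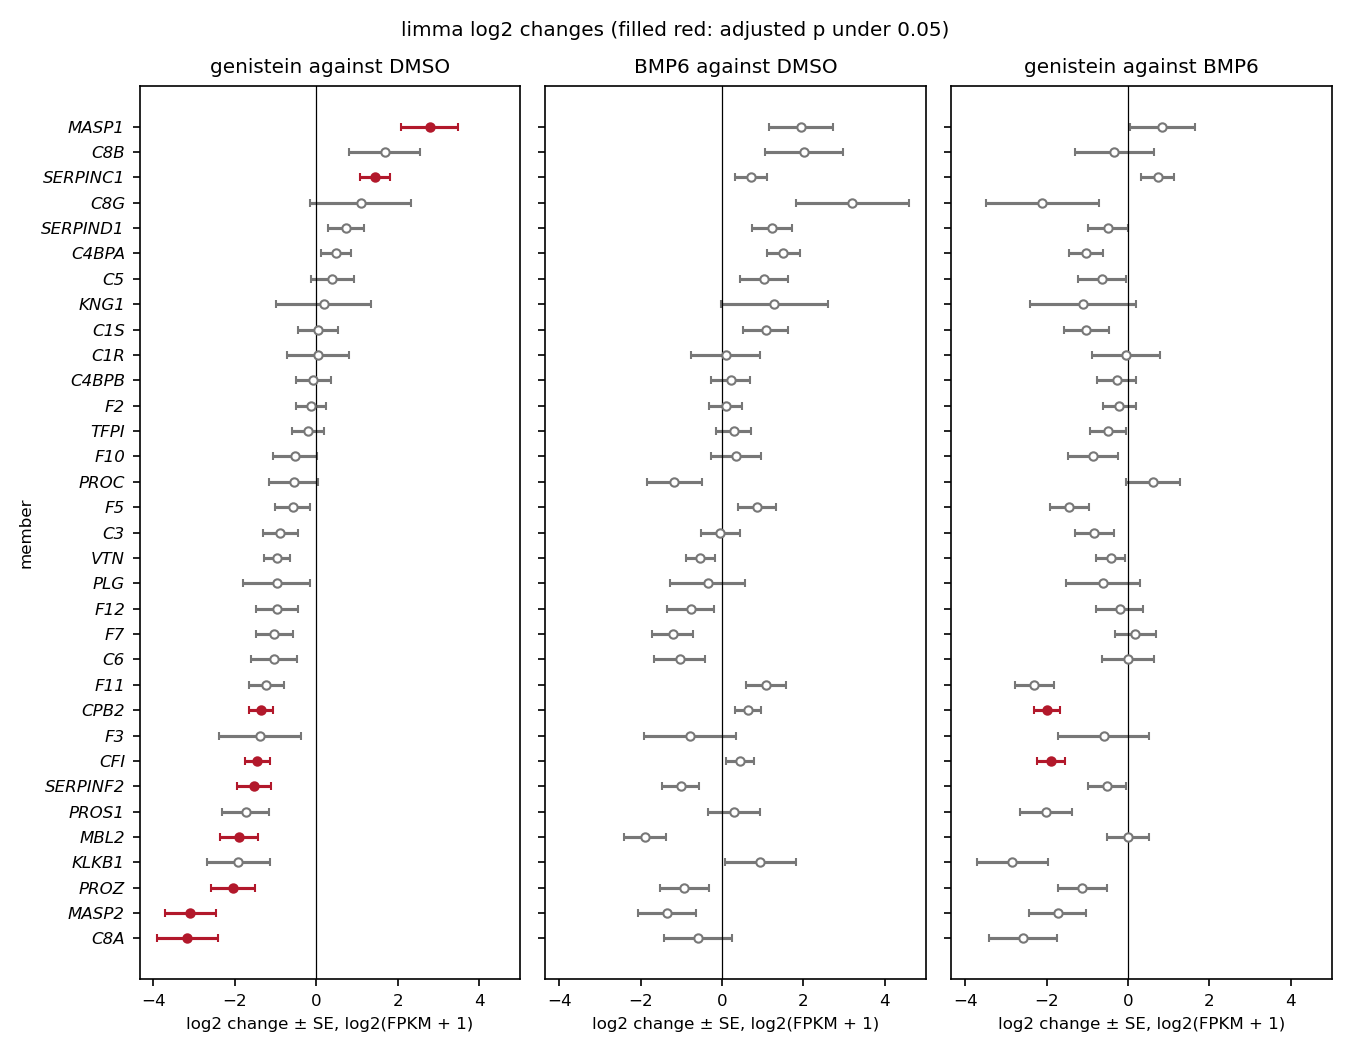
limma log2 change ± SE on the log2(FPKM + 1) scale for the 33 tested members in the 3 comparisons, ordered by the change after genistein, with filled red points past an adjusted p of 0.05. Genistein against DMSO has 9 filled points, BMP6 against DMSO none and genistein against BMP6 2, CPB2 and CFI; the values of MBL2, C6 and KLKB1 rest on groups listed at 0.

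A list of 59 other genes of the cascades was examined beside the members. It held 56 genes with a row, of which 23 were listed at 0 in all libraries, among them the C1q chains C1QA, C1QB and C1QC, CFP, F8 and THBD, and 32 were tested. After genistein 6 of the 32 rose and none fell (12.1% of all tested genes called, 6.11% higher and 5.96% lower). With median-of-ratios scaling or quantile normalization 6 were higher and 4 lower (17.7% and 18.9% of all tested genes called). CD55, the membrane regulator that dissociates C3 convertases, had 402, 352 and 344 FPKM in genistein 1, 2 and 3, 31.6 and 38.7 FPKM in BMP6 1 and 2, and 23.7, 38.6 and 45.4 FPKM in DMSO 1, 2 and 3. It rose against DMSO (log2 change 3.36 ± 0.32, SE; limma adjusted p = 0.00219) and was higher than after BMP6 (3.35 ± 0.36, SE; limma adjusted p = 0.00608).

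SERPINE2, a cell-bound thrombin and protease inhibitor, had 154, 145 and 148 FPKM in genistein 1, 2 and 3, against 22.8, 27.7 and 33.0 FPKM in DMSO 1, 2 and 3 (limma adjusted p = 0.00805). Rises after genistein also included F2RL1, a protease-activated receptor, VKORC1L1, a vitamin K epoxide reductase, and C5AR1, the C5a receptor, with log2 changes of 2.06 ± 0.42, 1.17 ± 0.30 and 2.82 ± 0.74 (SE) and limma adjusted p of 0.0208, 0.043 and 0.0448. CFD, factor D, and CPN1, a subunit of carboxypeptidase N, had log2 changes of -3.49 and -1.17 and missed the threshold (limma adjusted p = 0.0538 each). F2RL1 had 64.6, 40.2 and 53.6 FPKM in genistein 1, 2 and 3, against 7.01, 13.8 and 15.9 FPKM in DMSO 1, 2 and 3. VKORC1L1 had 58.5, 63.8 and 59.0 FPKM in genistein 1, 2 and 3, against 28.1, 29.2 and 22.1 FPKM in DMSO 1, 2 and 3. C5AR1 had 26.8, 10.2 and 24.2 FPKM in genistein 1, 2 and 3, 0 FPKM in BMP6 1 and 2, and 6.05, 0 and 2.18 FPKM in DMSO 1, 2 and 3. In none of these genes did genistein overlap DMSO. CD55 and SERPINE2 kept their calls after genistein without each of the 6 libraries. F2RL1 lost its call without DMSO 2, genistein 1 or genistein 3 (adjusted p at most 0.0868), C5AR1 without DMSO 2, DMSO 3 or any genistein library (at most 0.15) and VKORC1L1 when any 1 of the 6 was left out (at most 0.141). The count of partner genes called after genistein was 3 without DMSO 2, genistein 1 or genistein 3. Of all tested genes 1.83%, 4.74% and 2.23% were called in these settings. In BMP6 against DMSO the list had 1 called gene (0.837% of all tested genes). It had none without DMSO 2, genistein 1 or genistein 3 (0.0399%, 0.335% and 0.0954%).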

How the data were processed

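PolyA RNA of 8 HepG2 libraries was sequenced on a Genome Analyzer II, per the labels' protocols. Per the file headers, the deposited values are FPKM, 1 for each Ensembl gene, beside a confidence interval and a status. The submitters' processing notes name hg18, Bowtie, TopHat 1.1.0, Cuffdiff and Cufflinks 1.0.3 without settings. How the FPKM were scaled is not given in the sources used. Low values did not scale with transcript length (Spearman -0.0939 to 0.0898 over the 1000 lowest values per library), so no reads were recovered, depth is unknown, no count model was used, and neither counting intervals nor floors were computed. An exact 0 can be a failed estimate and is described as listed at 0. No member had a FAIL status.

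A gene name table paired 19069 of the IDs with symbols. Coordinates are those of the files, counted from 1, and no hg18 annotation was used. The 12661 genes that reached 1 FPKM in 2 or more libraries were tested on log2(FPKM + 1), which understates the changes of low genes, in a single limma fit of all libraries (limma 3.58.1, R 4.3.3; intensity trend, 5 residual and 3.22 prior degrees of freedom), two-sided, with p-values adjusted by Benjamini-Hochberg across these genes and called under 0.05. The fit was run on simulated data with noise drawn separately for each gene and library. Deviations that many genes of a library share were not simulated, so that run cannot show how they affect the calls. Groups and replicate numbers come from the sample titles. The members, lists and motifs were chosen with earlier results of these data known. Members were given library by library where they passed in any comparison, were among the 8 highest in DMSO, were among the 3 largest rises or falls of a comparison or had a group listed at 0. PROS1, F5, F12 and C4BPA, and CFD and CPN1 of the other cascade genes, fall outside this rule and were added after their values were seen. The remaining members are given by range or estimate. Figures and tables used Python 3.11.15, and exact permutation tests SciPy 1.17.1. Promoter sequences are from RefSeq (GRCh38.p14), with entries for 31 members. The counts of other cascade genes include genes that are not reported here by name.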

Additional observations from a re-analysis of the deposited data

How the results depend on the processing

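Of 45 changes named for single genes, recomputed under 20 alternatives (896 values), 891 kept their direction, 133 lost the threshold and 26 gained it. Several alternatives alter the test but not the estimate, such as the filters, no intensity trend or leaving out a library of the group not compared. Their direction could not change. The 45 changes were also picked for being called, large or at an unadjusted p under 0.05. The count of kept directions is therefore no measure of robustness. The log2 change of PROZ after BMP6 was positive without BMP6 1 (range without 1 library -1.96 to 0.11) and without DMSO 1, genistein 2 and BMP6 1 (0.063). That of PROC between genistein and BMP6 was negative in the same settings (-0.54 to 1.78, and -0.58), and that of SERPINF2 was positive without BMP6 2 (-1.03 to 0.011). None of these passed the threshold in the reported fit. With median-of-ratios scaling the median over all tested genes shifted by -0.102 (log2, genistein and DMSO) and -0.155 (genistein and BMP6).

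For genistein against DMSO, the 9 members called (12.1% of all tested genes) were 5 with a pseudocount of 0.1 FPKM (10.1%), 3 with no filter on low values (4.35%) and 18 with arrayWeights (42.5%). They were 2 without DMSO 1 and genistein 2 (3.37%), 10 without DMSO 1, genistein 2 and BMP6 1 (22.2%), both chosen after seeing the data, and 0 to 10 without 1 library. The 6 other cascade genes called were 10 with median-of-ratios scaling (17.7% of all tested genes) or quantile normalization (18.9%). They were also 10 with only the 2 groups compared (20.7%) and 17 with arrayWeights (42.5%). Without 1 genistein or DMSO library they were 3 to 5 (1.83% to 8.14%). For BMP6 against DMSO, the members called were 1 with no filter (0.646% of all tested genes). They were 0 without 1 genistein or DMSO library (0.0399% to 0.943%). The 1 other cascade gene was 0 with only the 2 groups compared (0.103%) or arrayWeights (0.0632%). It was also 0 without DMSO 2, genistein 1 or genistein 3 (0.0399%, 0.335% and 0.0954%). For genistein against BMP6, the 2 members called (1.39% of all tested genes) were 1 with a mean of at least 5 FPKM (1.11%). They were also 1 with only the 2 groups compared (0.64%), no intensity trend (1.56%) or without DMSO 1 and genistein 2 (1.41%). They were 4 with quantile normalization (3.35%), 0 with arrayWeights (0.3%) and 0 to 4 without 1 genistein or DMSO library (0.335% to 1.68%). The 1 other cascade gene was 3 with a pseudocount of 5 FPKM (1.99%) and 4 with median-of-ratios scaling (3.29%) or quantile normalization (3.35%). It was 2 with no intensity trend (1.56%) or without DMSO 1 and genistein 2 (1.41%). Without 1 genistein or DMSO library it was at least 1 (0.335% to 1.68%). The no-filter setting tested 20897 genes; the cause of the other changes was not tested. A lone BMP6 library is assumed to vary like the other groups.

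Same-numbered genistein and DMSO libraries had deviations from their group means that correlated at -0.146, -0.0652 and -0.00459. For genistein and BMP6 these values were -0.247 and 0.286, and for BMP6 and DMSO 0.0554 and 0.00142. The highest value of any pair was 0.594, between genistein 3 and BMP6 1. With so few libraries a group, these values cannot show whether same-numbered libraries were prepared together. With the replicate block, genistein against DMSO had 1 member and 3 other cascade genes called (3.27% of all tested genes). Neither members nor other cascade genes were called between BMP6 and DMSO (0.0316%) or between genistein and BMP6 (0.0553%).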

Other observations

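Pairs of chains or partners of the same complex were compared within each library, the pairs being chosen after their values were seen. C8A and C8B encode the alpha and beta chains of C8. The C8A value minus the C8B value, on the log2(FPKM + 1) scale, was -1.18, -3.69 and -1.37 in genistein 1, 2 and 3, -0.20 and 0.52 in BMP6 1 and 2, and 4.62, 1.87 and 1.80 in DMSO 1, 2 and 3. C8A was thus the lower of the pair in every genistein library and the higher in every DMSO library. The same difference of MASP2 minus MASP1 was -0.12, 0.30 and -1.45 in genistein 1, 2 and 3, 0.62 and 3.68 in BMP6 1 and 2, and 7.65, 4.94 and 3.77 in DMSO 1, 2 and 3. For both pairs an exact two-sided permutation test of genistein against DMSO gave p = 0.1, the smallest that 3 against 3 libraries allow. C8A and MASP2 lay wholly below DMSO after genistein, and C8B and MASP1 wholly above. This outcome was thus fixed by the single genes and adds no evidence. The values at 0 FPKM for C8B and MASP1 in DMSO 1 and for C8A in genistein 2 enter these differences. For C4BPB minus C4BPA the differences were 3.78, 3.04 and 2.95 after genistein, 1.76 and 3.25 after BMP6 and 3.75, 3.68 and 3.97 in DMSO (exact two-sided permutation p = 0.3 for genistein against DMSO).

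Several members are neighbours in the genome. In the files' hg18 coordinates C8A and C8B lie 11 kb apart on chromosome 1, KLKB1 and F11 7.5 kb apart on chromosome 4, and F7, F10 and PROZ follow each other on chromosome 13 with gaps of 2.1 and 9.1 kb. KLKB1 and F11 had the same signs, with negative estimates after genistein and positive ones after BMP6, and none of these passed with all libraries. The positive KLKB1 estimate after BMP6 rests on DMSO 1, where KLKB1 was listed at 0. Its values of 5.55 and 6.87 FPKM in BMP6 1 and 2 lay between the 5.48 and 7.18 FPKM of DMSO 2 and 3. The chromosome 13 genes had log2 changes after genistein of -1.03 for F7, -0.51 for F10 and -2.04 for PROZ, of which only that of PROZ passed. After BMP6 these were -1.21, 0.34 and -0.92, and none passed. C8A and C8B had opposite signs after genistein (-3.16 and 1.68). So did C4BPB and C4BPA (-0.07 and 0.48), which lie 4.3 kb apart. C1S and C1R, 9.5 kb apart, had log2 changes of 0.04 each after genistein. Of these 4 other neighbours and C8B none passed.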
